A study of Mus musculus with 4 samples.

Results

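The genes described here are the secreted Wnt ligands, their receptors, their extracellular antagonists and 3 readouts of the pathway. The group was defined by symbol and chosen with earlier results of these data known. It holds every Wnt, Frizzled (Fzd), secreted Frizzled-related protein (Sfrp), Dickkopf (Dkk), R-spondin (Rspo) and Lgr (Lgr4, Lgr5 and Lgr6) gene. Added to these were Wif1, Lrp5, Lrp6, Axin2, Notum, Lef1 and Tcf7. This gave 51 of the 32285 genes counted, made up of 19 Wnt ligands, 4 R-spondins, 10 Frizzled receptors, 2 co-receptors, 3 R-spondin receptors, 4 Sfrp genes, 4 Dkk genes, Wif1 and Notum, and the readouts Axin2, Lef1 and Tcf7. Messenger RNA was counted in single cells of whole prostate tumours from 4 mice. The 2 PCSp mice carried PB-Cre, Chd1L/L and SpopF133V with the mTmG reporter, and the 2 PSp mice carried PB-Cre and SpopF133V with mTmG, so that Chd1L/L is the allele that separates them. Both genotypes had been castrated, at an age of 9 months, and tumours were taken 1 month after surgery; no intact mouse was part of the comparison. The PB promoter drives Cre in prostate epithelium, so that the floxed Chd1 alleles of fibroblasts, vessels and leukocytes are not its targets. Which cells had recombined was not read here.

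Wnt proteins are lipid-modified ligands that bind a Frizzled receptor together with Lrp5 or Lrp6, which stabilises beta-catenin, the partner of the TCF/LEF transcription factors. R-spondins bind Lgr receptors and keep Frizzleds at the cell surface, whereas Sfrp proteins and Wif1 bind the ligand, Dkk proteins bind the co-receptors and Notum removes the lipid. In the prostate, as in many glands, the mesenchyme is a known source of Wnt ligands and antagonists that act on the epithelium.

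The 4 libraries held between 6539 and 9656 cell barcodes and between 66874620 and 90839725 unique molecular identifiers (UMIs), of which 50764 to 60822 per library fell on the 51 genes. After filtering, 7615 and 7806 cells of PCSp mice and 5163 and 5847 cells of PSp mice were kept, and any pair of libraries shared at most 27 barcodes. The 26431 cells were placed in 9 classes by marker genes, the largest being epithelial-like (12756 cells), neutrophil-like (5912), fibroblast-like (3244), macrophage- and monocyte-like (2142), T and NK cell-like (1115) and endothelial-like (780). Levels are given as counts per 1000000 UMIs of the class (CPM), 1 value per mouse, with mice numbered only to name them. A captured transcript gives 1 UMI whatever its length, so these values were not divided by gene length. How well each gene is captured was not checked, so comparisons between genes are of UMIs. The epithelium carried Epcam at 2122 CPM on average, but Pbsn, a defining marker of secretory luminal cells, was at or below 0.380 CPM in every mouse. Chd1 in the epithelium was at 59.99 and 56.2 CPM in PCSp mice and 91.3 and 78.2 CPM in PSp mice (log2 difference PCSp minus PSp -0.56 ± 0.09 SE, edgeR adjusted p = 0.426). The 3' tags need not come from the deleted stretch of Chd1, so this level does not check the deletion.

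The fibroblasts had the highest level of more of the 51 genes than any other class. A class was called leading for a gene when its mean CPM over the 4 mice was the highest among classes with at least 10 UMIs of that gene. By that rule 42 genes had a leading class, which was the fibroblasts for 20, the epithelium for 10, the endothelium for 4, glia-like cells for 3, T and NK cells for 2, smooth muscle and pericyte-like cells for 2, and neutrophils for 1. For 24 of the 42, the lowest mouse of the leading class lay above the highest mouse of the next class. These counts were not made over all genes, so they do not set the 51 genes apart from other genes. The other 9 genes were at or near the detection limit: Dkk4 had 0 UMIs among 278051849, which allows up to 0.0108 CPM, Wnt3, Wnt8a and Rspo4 had 1 each, Wnt3a had 3, Wnt8b, Wnt9b and Dkk1 had 8 each and Rspo2 had 9.

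**Figure D1:**
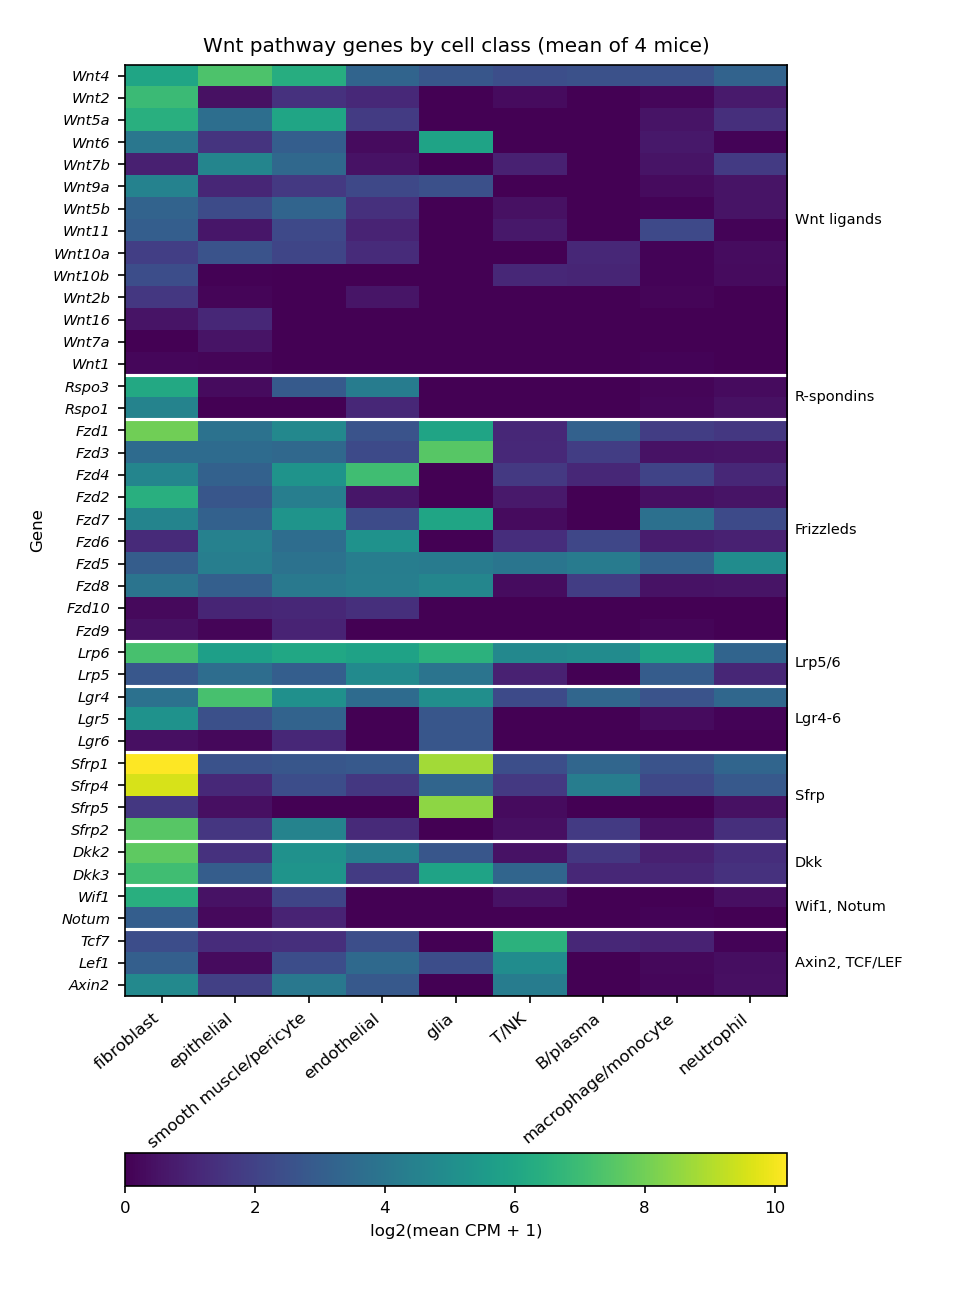
Mean level over 4 mice, as log2(CPM + 1) on a colour scale, of the 42 genes with a leading class, with genes in rows grouped by role and cell classes in columns. The antagonists Sfrp1, Sfrp4, Sfrp2, Dkk2, Dkk3 and Wif1 are bright in the fibroblast column, while Wnt4, Wnt7b and Lgr4 are bright in the epithelial column.

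The promoters of 4 of the genes are shown because each stands for a different place of expression: Lgr4 for the epithelium, Sfrp2 and Dkk2 for a pair of fibroblast groups described below, and Axin2 for the feedback readout. They are RefSeq sequences of GRCm38.p6, the 250 bases before the start of the gene, 5′ to 3′ on the gene's strand, with CpG dinucleotides in capitals. They lie at chr2:109917397-109917646, + strand (Lgr4), chr3:83766071-83766320, + strand (Sfrp2), chr3:132085042-132085291, + strand (Dkk2) and chr11:108920099-108920348, + strand (Axin2).
Lgr4: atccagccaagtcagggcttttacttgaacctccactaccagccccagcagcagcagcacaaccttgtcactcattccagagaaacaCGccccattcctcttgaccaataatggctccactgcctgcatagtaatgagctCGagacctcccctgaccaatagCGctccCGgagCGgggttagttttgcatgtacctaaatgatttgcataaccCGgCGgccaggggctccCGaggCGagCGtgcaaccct
Sfrp2: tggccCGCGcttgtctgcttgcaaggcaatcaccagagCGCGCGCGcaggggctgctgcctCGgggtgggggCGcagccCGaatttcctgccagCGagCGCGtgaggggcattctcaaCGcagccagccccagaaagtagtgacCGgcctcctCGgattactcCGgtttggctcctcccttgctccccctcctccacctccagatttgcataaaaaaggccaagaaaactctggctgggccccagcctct
Dkk2: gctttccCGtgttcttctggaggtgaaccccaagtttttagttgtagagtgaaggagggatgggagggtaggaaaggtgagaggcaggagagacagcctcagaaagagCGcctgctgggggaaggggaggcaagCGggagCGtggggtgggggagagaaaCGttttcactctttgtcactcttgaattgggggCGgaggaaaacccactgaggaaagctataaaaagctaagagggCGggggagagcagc
Axin2: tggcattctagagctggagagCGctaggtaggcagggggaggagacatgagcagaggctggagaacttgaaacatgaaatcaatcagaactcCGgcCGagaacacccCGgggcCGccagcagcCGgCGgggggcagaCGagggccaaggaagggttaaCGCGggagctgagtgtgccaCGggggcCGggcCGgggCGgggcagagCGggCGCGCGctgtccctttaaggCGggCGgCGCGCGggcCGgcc
The CpG count of these windows was 10 for Lgr4, 16 for Sfrp2, 7 for Dkk2 and 24 for Axin2. Of the 51 genes, 33 had an entry in the promoter table; their median CpG count was 22, ranging from 5 to 48, and 31 of the 33 lay above 6, the median of all 32851 promoters. Above that median lay 46.3% of all promoters. The core sites CTTTGAT and CTTTGAA, searched on both strands in 300 bases from 250 before to 50 after the start, matched in 2 of the 33 (6.06%), Wnt11 and Dkk1, and in 8.65% of all promoters. A match or its lack describes the letters of this window alone.

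Among the ligands, Wnt4 was the most counted, with 69.2% of all Wnt ligand UMIs. This share pools all classes, and the epithelium held 220762241 of the 278051849 UMIs, so it is weighted towards epithelial genes. In fibroblasts, Wnt2 and Wnt5a were higher than Wnt4 in every mouse. Wnt4, known for its part in kidney and reproductive tract development, was at 156 and 179.9 CPM in PCSp mice and 164 and 155 CPM in PSp mice in the epithelium. It was at 41.01 and 72.9 CPM in PCSp mice and 55.96 and 81.8 CPM in PSp mice in the fibroblasts, below every epithelial value. Wnt7b, a ligand made by epithelia of other organs such as the lung, was the next most counted with 9.92% of ligand UMIs and was at 22.4 and 25.6 CPM in PCSp mice and 25.6 and 22.7 CPM in PSp mice in the epithelium, against at most 1.12 CPM in the fibroblasts of any mouse. Wnt7b is named here after its values were seen.

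The fibroblasts had ligands of their own. Wnt2, a mesenchymal ligand in the developing lung, was at 127 and 141 CPM in PCSp mice and 121 and 98.3 CPM in PSp mice in fibroblasts, and no mouse exceeded 0.666 CPM in the epithelium. Wnt5a, which mostly signals without beta-catenin, was at 74.3 and 84.5 CPM in PCSp mice and 75.9 and 105 CPM in PSp mice in fibroblasts and at 10.4 and 12.2 CPM in PCSp mice and 13.95 and 10.2 CPM in PSp mice in the epithelium. The groups of values did not overlap between the cell classes for either gene, but Wnt5a was also carried by smooth muscle and pericyte-like cells at 63.5 ± 11.5 CPM (SD, n = 4), where the highest mouse reached the lower fibroblast values. Wnt6 had its highest mean, 58.5 CPM, in the glia-like cells, where it rested on 11 UMIs in 80 cells and was at 0 in 1 mouse. In fibroblasts Wnt6 was at 13.3 and 10.5 CPM in PCSp mice and 17.03 and 21.9 CPM in PSp mice.

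R-spondins and their receptors were split between stroma and epithelium. Rspo3 held 76.0% of the R-spondin UMIs and was at 57.4 and 80.7 CPM in PCSp mice and 55.7 and 83.2 CPM in PSp mice in fibroblasts. Rspo1, the other member of the family above the detection limit, was at 18.7 and 34.997 CPM in PCSp mice and 19.5 and 16.6 CPM in PSp mice there. The endothelium also carried Rspo3, at 34.2 and 14.2 CPM in PCSp mice and 6.01 and 19.5 CPM in PSp mice, with 1 PSp mouse far below the others, while the epithelium had at most 0.446 CPM of Rspo3 and at most 0.0551 CPM of Rspo1. Lgr4, the receptor that accounted for 95.2% of Lgr UMIs, lay on the other side, at 141 and 155 CPM in PCSp mice and 162 and 145 CPM in PSp mice in the epithelium and at 13.001 and 14.5 CPM in PCSp mice and 14.1 and 10.1 CPM in PSp mice in fibroblasts. Lgr5, known as a stem cell marker of the intestine, had its highest level per cell class in fibroblasts: it was at 25.4 and 33.7 CPM in PCSp mice and 34.8 and 50.01 CPM in PSp mice in fibroblasts and at 3.75 and 4.02 CPM in PCSp mice and 8.33 and 2.397 CPM in PSp mice in the epithelium. As the epithelium was the larger class, it held 60.3% of the Lgr5 UMIs and the fibroblasts 38.8%. The 95.2% share of Lgr4 is weighted towards the epithelium in the same way, and in fibroblasts Lgr5 was higher than Lgr4 in every mouse. Lgr6 was near absent, with a mean of 0.158 CPM in the epithelium and 43 UMIs over all 4 libraries.

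The Frizzled receptors differed in which class carried them, and no member of the family dominated. Fzd1, with 25.3% of Frizzled UMIs, was at 273 and 191 CPM in PCSp mice and 281 and 275 CPM in PSp mice in fibroblasts, where the lowest value belonged to a PCSp mouse and the other 3 mice lay close together. Fzd2 was at 76.8 and 98.3 CPM in PCSp mice and 84.7 and 81.2 CPM in PSp mice in the same cells. Fzd4, the receptor that also answers to norrin in vessels, was at 108 and 144 CPM in PCSp mice and 150.2 and 129 CPM in PSp mice in the endothelium. Its endothelial values lay above those of any other class, the next being smooth muscle and pericyte-like cells at 36.4 ± 14.7 CPM (SD, n = 4). Fzd3 averaged 186 CPM in the glia-like cells, ranging from 69.7 to 311 CPM among mice, and 10.8 ± 0.855 CPM (SD, n = 4) in the epithelium. Fzd5 was highest in neutrophils (30.2 ± 3.81 CPM) and next in the epithelium (19.5 ± 2.03 CPM). Fzd6, a receptor of planar polarity, was at 35.98 ± 11.2 CPM in the endothelium and at 21.2 ± 1.39 CPM in the epithelium, with overlapping mice (SD, n = 4 each; both genes named after their values were seen).

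The co-receptor Lrp6 held 84.5% of the co-receptor UMIs and was counted in every class. It was at 139 and 148 CPM in PCSp mice and 159 and 149.8 CPM in PSp mice in fibroblasts and at 57.7 and 53.9 CPM in PCSp mice and 52.5 and 49.9 CPM in PSp mice in the epithelium. Lrp5 was highest in the endothelium, at 29.9 and 21.8 CPM in PCSp mice and 32.6 and 29.6 CPM in PSp mice. All 4 endothelial values of Lrp5 lay above all epithelial values, which averaged 11.4 ± 2.23 CPM (SD, n = 4).

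Fibroblasts were the leading class of 7 of the 10 genes for secreted antagonists (Sfrp, Dkk, Wif1 and Notum), and Sfrp1 and Sfrp4 had the highest class levels of the 51 genes. Sfrp1 was at 891 and 1935 CPM in PCSp mice and 1149.8 and 706 CPM in PSp mice in fibroblasts, with 1 PCSp mouse well above the other 3 mice. Sfrp4 was at 515 and 960.2 CPM in PCSp mice and 802 and 739 CPM in PSp mice. Sfrp2 was at 175 and 222 CPM in PCSp mice and 174 and 176 CPM in PSp mice, with the same mouse highest for all 3 genes. The 4 Sfrp genes together came to 1581 and 3120.4 CPM in PCSp fibroblasts and 2129 and 1622 CPM in PSp fibroblasts. Sfrp5, in contrast, had its highest class level in the 80 glia-like cells, at 557 and 178 CPM in PCSp mice and 139 and 518 CPM in PSp mice, and averaged 2.13 CPM in fibroblasts. Of its 186 UMIs, 42.5% fell in the epithelium, 34.9% in the glia-like cells and 19.4% in fibroblasts.

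Dkk2, which binds Lrp5 and Lrp6, was at 182 and 180.0 CPM in PCSp mice and 261 and 188 CPM in PSp mice in fibroblasts. Dkk3, a relative that does not share the usual activity of the family on Lrp6, was at 140.4 and 120.3 CPM in PCSp mice and 125 and 144 CPM in PSp mice. For Dkk2 the PCSp values were the lower in both mice, and for Dkk3 the genotypes overlapped. Wif1 was at 67.8 and 81.3 CPM in PCSp mice and 109 and 83.7 CPM in PSp mice in fibroblasts and averaged 0.414 CPM in the epithelium, and its PCSp fibroblast values lay below both PSp values. Notum was low, at 6.66 and 5.45 CPM in PCSp mice and 5.596 and 11.5 CPM in PSp mice, and lower still in the epithelium, with at most 0.297 CPM in the epithelium of any mouse.

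The readouts sat in different cells. Axin2, a feedback gene that beta-catenin signalling induces in many tissues, was at 28.6 and 22.004 CPM in PCSp mice and 22.9 and 33.2 CPM in PSp mice in fibroblasts and at 2.76 and 2.46 CPM in PCSp mice and 3.84 and 2.17 CPM in PSp mice in the epithelium, and T and NK cells carried 18.2 ± 7.09 CPM (SD, n = 4), overlapping the fibroblasts. Tcf7, a factor of naive and memory T cells, was at 102 and 106 CPM in PCSp mice and 85.4 and 73.5 CPM in PSp mice in T and NK cells and averaged at most 4.46 CPM in any other class with 10 UMIs. Lef1 was at 19.9 and 30.9 CPM in PCSp mice and 31.4 and 38.8 CPM in PSp mice in T and NK cells and averaged 7.602 CPM in fibroblasts and 0.228 CPM in the epithelium.

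RNA released from broken cells can give UMIs of a gene in cells that do not make it. The level that fibroblasts could leave in the epithelium was taken as 1.81% of their own level. That is the ratio of Dcn, the largest epithelium to fibroblast ratio among Dcn, Fbln1 and Lum, their most abundant markers. The epithelial levels of Sfrp1, Sfrp4, Sfrp2, Dkk2, Rspo1, Rspo3, Wif1, Wnt2 and Wnt10b were below that estimate, at 0.0538 to 0.603 times it. By this estimate alone, expression of these genes in the epithelium as a whole was not told apart from released RNA. The epithelial levels of Wnt4, Lrp6, Wnt5a, Lgr5, Fzd1 and Dkk3 were 144, 19.9, 7.62, 7.11, 2.93 and 2.901 times it. Dcn was itself a leading gene of a basal cluster described below, so this ratio may also hold Dcn of epithelial cells and is then too high. Col1a1, another fibroblast marker, averaged 1.32 CPM in the epithelium and 690 CPM in fibroblasts, which would give a lower estimate. The marker share was not even over the epithelium: the sum of 10 fibroblast markers was 1412 and 924 CPM in PCSp mice and 605 and 659 CPM in PSp mice in basal cells, against 56.7 and 56.9 CPM in PCSp mice and 46.5 and 81.2 CPM in PSp mice in luminal progenitors. Sfrp2 went the other way, with 2.23 and 6.41 CPM in PCSp mice and 2.69 and 1.19 CPM in PSp mice in luminal progenitors and 0.697 and 1.21 CPM in PCSp mice and 0.601 and 0.618 CPM in PSp mice in basal cells. It averaged 6.01 ± 4.02 CPM (SD, n = 4) in a luminal progenitor cluster led by Reg3b and Reg1.

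Fibroblast and epithelial sums were compared within the 4 mice in a single fit over all genes, with mouse as a term. Of the 38 genes of the group that passed the filter on low counts, 37 differed between the classes at an adjusted p under 0.05, 28 higher in fibroblasts and 9 lower; of all 15509 genes tested, 73.9% differed, 36.2% higher and 37.7% lower. The median log2 difference of the 38 genes was 3.02, against -0.03 for all genes. The largest differences were those of the antagonists and stromal agonists: Rspo1 (9.62 ± 0.37 SE, edgeR adjusted p = 4.90e-09), Sfrp4 (9.29 ± 0.33, adjusted p = 2.47e-09), Wnt2 (8.32 ± 0.18, adjusted p = 1.10e-10) and Rspo3 (8.21 ± 0.27, adjusted p = 1.37e-09). For those 4 genes the epithelial level lay below the estimate for released RNA. Lower in fibroblasts were Wnt7b (-4.84 ± 0.21, adjusted p = 1.29e-08), Fzd6 (-4.07), Lgr4 (-3.56 ± 0.10, adjusted p = 6.56e-10), Fzd10 (-2.35), Fzd5 (-1.53), Wnt4 (-1.44 ± 0.14, adjusted p = 5.65e-06), Wnt16 (-1.40), Wnt10a (-1.08) and Lrp5 (-0.94). The single gene that did not pass was Fzd3, with a difference of -0.04 ± 0.14 and an adjusted p of 0.808.

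**Figure D2:**
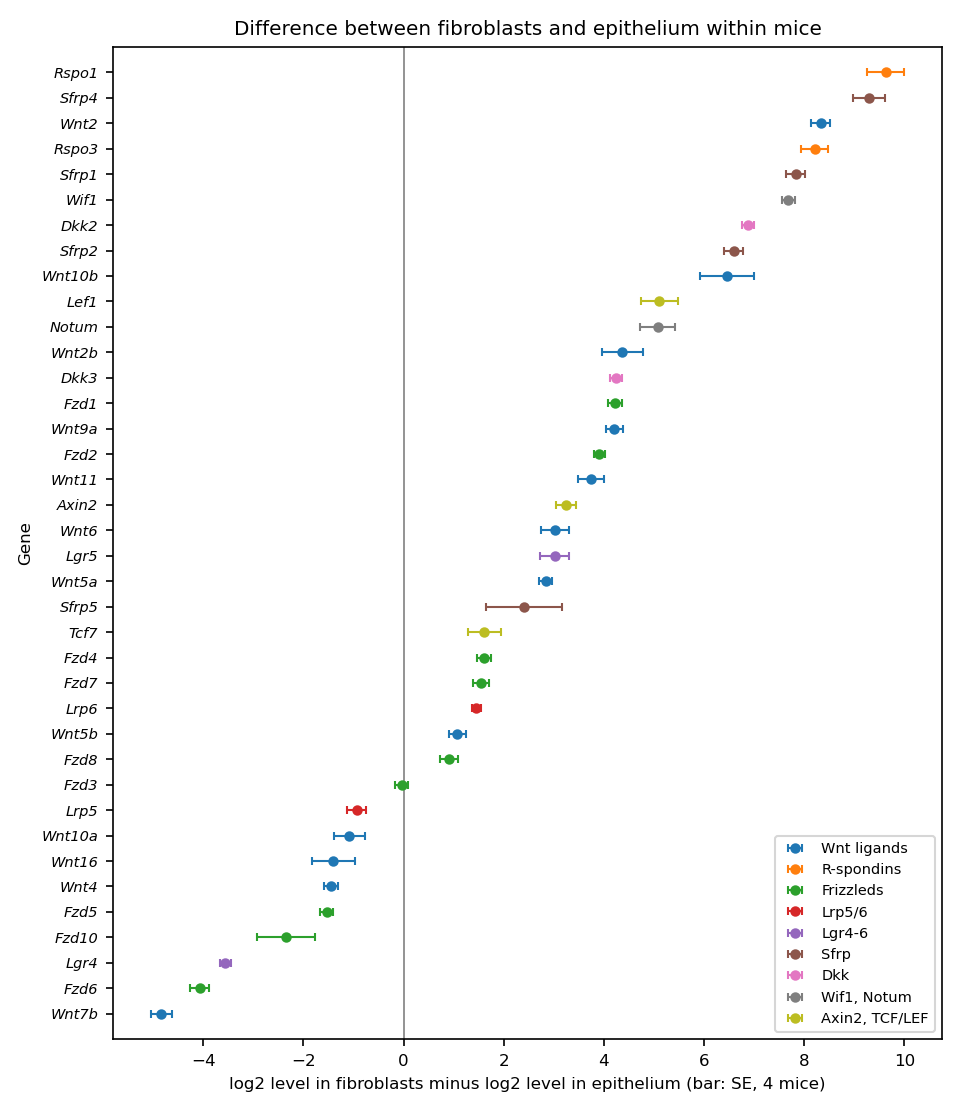
Log2 difference, fibroblast minus epithelium, for the 38 genes tested, in order of size, with bars of 1 standard error (edgeR, 4 mice). It runs from 9.62 for Rspo1 to -4.84 for Wnt7b, and Fzd3 is the gene at 0.

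Within the fibroblasts, sub-clusters 4 and 6 had the highest mean of more of the genes than the others, while Sfrp1, Sfrp4 and Rspo3 peaked elsewhere. The 3244 fibroblasts were divided into 8 sub-clusters without using any of the 51 genes. Sub-cluster 4 (585 cells, led by Hhip, Coch and Wipf3) had the highest mean of 13 of the genes, and sub-cluster 6 (388 cells, led by Tnc, Cdkn2a and Igfbp2) that of 10. In 6 and 3 cases, the lowest mouse of that sub-cluster lay above the highest mouse of every other sub-cluster of at least 50 cells. Against the other fibroblasts, sub-cluster 6 was higher for 4 of 10 smooth muscle and pericyte markers and sub-cluster 4 for 1. These levels are a description with no test. How many of all genes each sub-cluster leads was not counted, so the counts do not set the 51 genes apart.

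Sub-cluster 4 combined ligands, a receptor and ligand-binding antagonists. Lgr5 was at 113 and 227 CPM in PCSp mice and 181 and 163 CPM in PSp mice there, and the highest value of any mouse in the other sub-clusters of at least 50 cells was 33.9 CPM. Wnt5a was at 178 and 222 CPM in PCSp mice and 212 and 248 CPM in PSp mice. The ligand Wnt4, mainly epithelial in the whole tumour, was at 130.1 and 296 CPM in PCSp mice and 183 and 232 CPM in PSp mice. These cells held 662 of the 1134 fibroblast UMIs of Wnt4, and sub-clusters 0 and 1 averaged 27.1 and 17.3 CPM. Wnt6 was at 43.95 and 49.7 CPM in PCSp mice and 48.4 and 58.6 CPM in PSp mice. Sfrp2 was at 523 and 449 CPM in PCSp mice and 527 and 439.5 CPM in PSp mice. Notum, low in the class as a whole, was at 30.8 and 43.9 CPM in PCSp mice and 28.7 and 34.2 CPM in PSp mice. Each of these 6 genes was clear of all other sub-clusters of at least 50 cells in every mouse. The same cells had the highest Axin2 mean, at 69.4 and 63.02 CPM in PCSp mice and 51.4 and 57.6 CPM in PSp mice, and a high Wif1 level, at 211 and 244 CPM in PCSp mice and 323 and 210.0 CPM in PSp mice. They had little of the antagonists that lead elsewhere: Sfrp1 was at 66.8 and 70.7 CPM in PCSp mice and 80.1 and 45.9 CPM in PSp mice and Sfrp4 at 17.6 and 5.73 CPM in PCSp mice and 6.04 and 21.5 CPM in PSp mice.

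Sub-cluster 6 was the high point of Dkk2 and Wnt2. Dkk2 was at 761 and 379.7 CPM in PCSp mice and 1165 and 1238 CPM in PSp mice, with 1 PCSp mouse lowest and both PSp mice highest. Wnt2 was at 430.2 and 269.6 CPM in PCSp mice and 450.3 and 421 CPM in PSp mice, and the same PCSp mouse was lowest. Fzd2 averaged 155 ± 19.4 CPM and Fzd1 449 ± 136 CPM (SD, n = 4). Sfrp1 in these cells was at 844 and 3107 CPM in PCSp mice and 1008 and 753 CPM in PSp mice, so that the high Sfrp1 mouse of the whole fibroblast class was also the high mouse here. Among the remaining fibroblasts, sub-cluster 0 (830 cells, led by Cxcl13) averaged 1399.6 ± 609 CPM of Sfrp4 and 1319 ± 276 CPM of Sfrp1 (SD, n = 4). Sub-cluster 1 (560 cells, led by Myoc) had Sfrp1 at 1634 ± 377 CPM and Rspo3 at 172 ± 47.3 CPM (SD, n = 4). Sub-cluster 3 (174 cells, led by Smpd3 and Ptx3) was highest for Fzd4, at 68.2 ± 11.6 CPM, and for Wnt10b, at 34.4 ± 14.4 CPM (SD, n = 4; Wnt10b named after its values were seen).

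**Figure D3:**
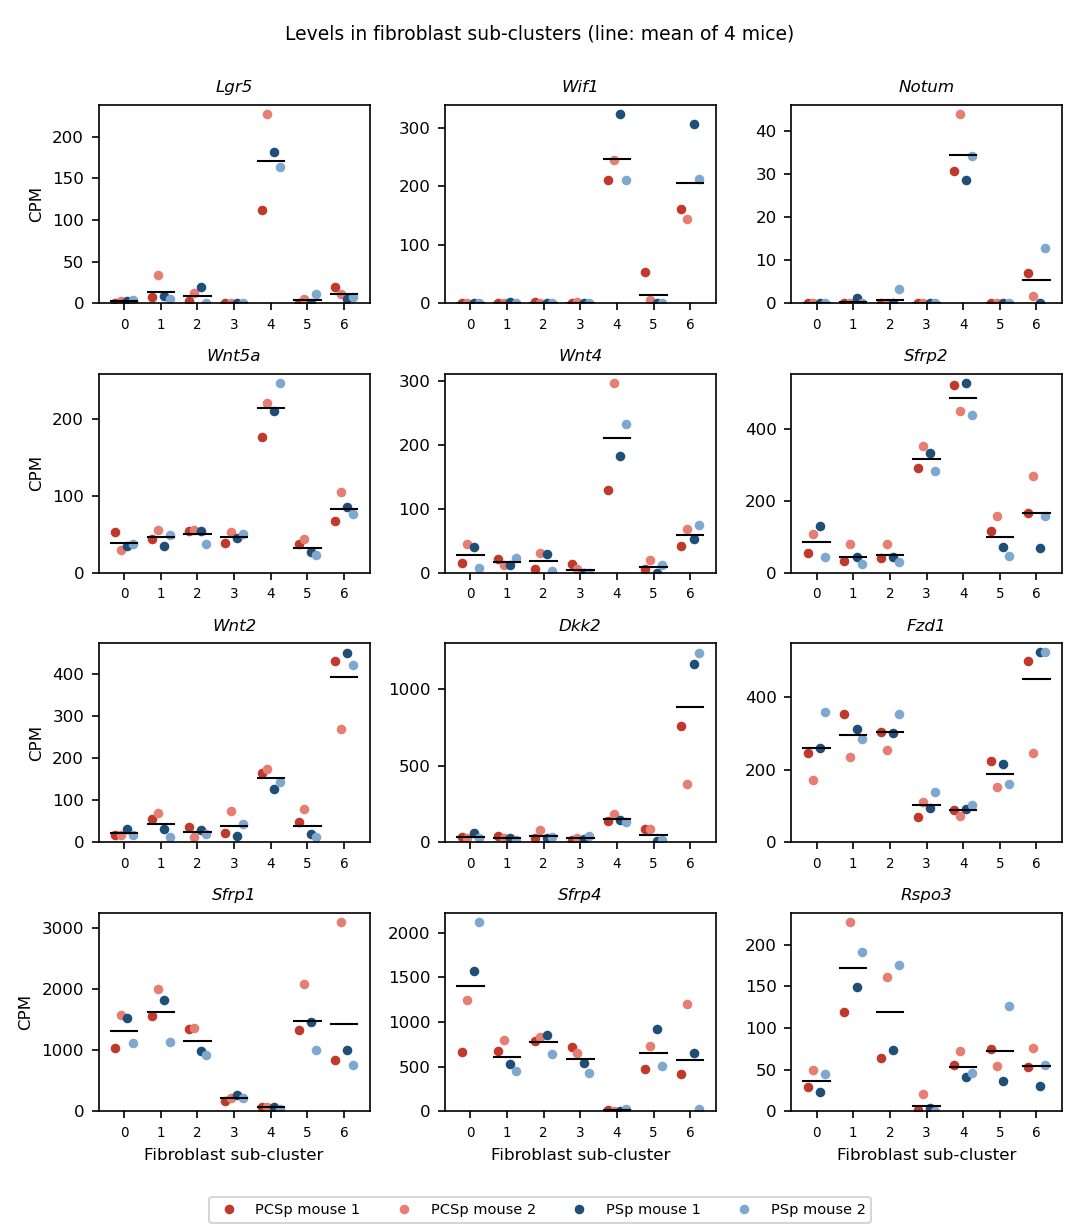
Levels (CPM) of 12 of the genes in fibroblast sub-clusters 0 to 6, with a point per mouse, PCSp mice in red and PSp mice in blue, and a line at the mean of 4 mice. Lgr5, Notum, Wnt5a, Wnt4 and Sfrp2 peak in sub-cluster 4, Dkk2 and Wnt2 in sub-cluster 6, and Sfrp1 and Sfrp4 are lowest in sub-cluster 4.

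These sub-clusters made up different shares of the fibroblasts in different mice. Sub-cluster 4 was 18.7% and 13.9% of PCSp fibroblasts and 14.9% and 26.3% of PSp fibroblasts, and the genotypes overlapped (exact permutation p = 0.667, two-sided). Sub-cluster 6 was 11.1% and 18.7% of PCSp fibroblasts and 8.85% and 6.57% of PSp fibroblasts. Both PCSp mice lay above both PSp mice, with exact permutation p = 0.333, the smallest that 2 against 2 mice can give. The exact Clopper-Pearson 95% intervals for sub-cluster 6 were 9.31% to 13.03% and 16.2% to 21.4% in PCSp mice and 6.70% to 11.4% and 4.71% to 8.87% in PSp mice, and cover counting error only.

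In the epithelium, Wnt4 and Lgr4 were found in every subclass, while Wnt10a, Wnt6, Lgr5 and Fzd2 were higher in basal-like cells than in luminal progenitor-like cells in every mouse. Basal-like cells numbered 4123 and luminal progenitor-like cells 2645. Also named were 176 urothelial-like and 52 neuroendocrine-like cells, and the rest took no name. The luminal progenitor-like cells pooled several clusters, among them 680 cells led by Reg3b and Reg1 and 40 led by Tff3. A cluster of 910 cells met 10 of 10 luminal progenitor markers but took no name, as the urothelial marker Upk1b was among its leading genes. Wnt4 was highest in the urothelial-like cells, at 456 and 421 CPM in PCSp mice and 587 and 439 CPM in PSp mice, followed by the luminal progenitors at 173 and 205 CPM in PCSp mice and 225 and 179 CPM in PSp mice and the basal cells at 148 and 159 CPM in PCSp mice and 124 and 143 CPM in PSp mice. All urothelial-like values lay above all others, and no luminal progenitor value overlapped the basal values. Lgr4 was at 171 and 183 CPM in PCSp mice and 214 and 162 CPM in PSp mice in luminal progenitors and at 97.1 and 119 CPM in PCSp mice and 123 and 103 CPM in PSp mice in basal cells. Its highest level was in a sub-cluster of 1257 unnamed epithelial cells of low UMI count led by Rmrp, at 279.8 and 346 CPM in PCSp mice and 329.8 and 289 CPM in PSp mice.

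Wnt10a and Wnt6 followed the basal cells. Wnt10a, a ligand of skin and its appendages, was at 12.3 and 13.6 CPM in PCSp mice and 11.6 and 13.3 CPM in PSp mice in basal cells, and Wnt6 was at 5.13 and 4.49 CPM in PCSp mice and 4.74 and 3.29 CPM in PSp mice. In luminal progenitors no mouse exceeded 0.802 CPM of Wnt10a or 0.321 CPM of Wnt6. These genes are neighbours on chromosome 1 (Wnt6 at chr1:74771892-74785322 and Wnt10a at chr1:74791516-74804179, GRCm38, GENCODE M21), with 6193 bases between them. In fibroblasts Wnt6 averaged 15.7 CPM and Wnt10a 2.72 CPM, and both had their highest sub-cluster mean in sub-cluster 4. Dkk3 was at 19.96 and 16.05 CPM in PCSp mice and 13.7 and 13.4 CPM in PSp mice in basal cells and averaged 0.739 CPM in luminal progenitors. Its highest mean was in the 52 neuroendocrine-like cells, at 40.3 and 8.08 CPM in PCSp mice and 67.3 and 127 CPM in PSp mice, with 1 PCSp mouse below the basal values. Lgr5 was at 10.5 and 9.26 CPM in PCSp mice and 15.2 and 6.74 CPM in PSp mice in basal cells and averaged 0.565 CPM in luminal progenitors. The part of the fibroblast transcripts given above in the basal levels of Dkk3, Fzd2 and Lgr5 was not tested. Wnt10a is named after its values were seen.

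**Figure D4:**
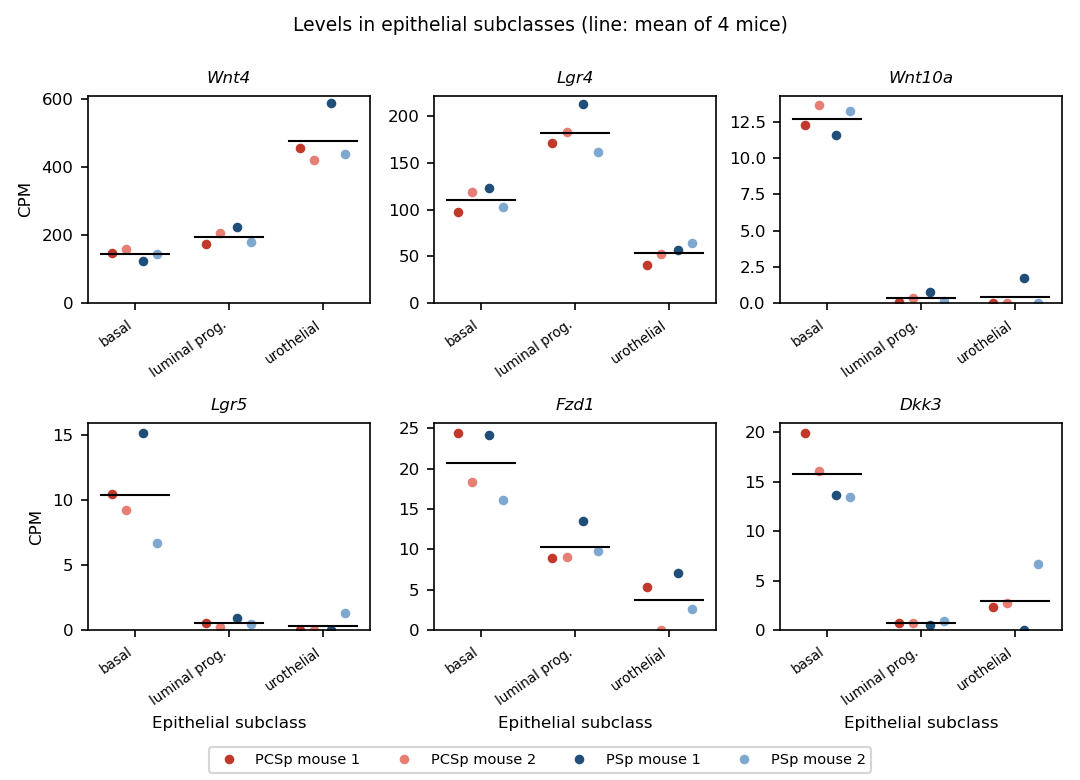
Levels (CPM) of Wnt4, Lgr4, Wnt10a, Lgr5, Fzd1 and Dkk3 in basal-like, luminal progenitor-like and urothelial-like cells, with a point per mouse, PCSp mice in red and PSp mice in blue, and a line at the mean of 4 mice. Wnt10a, Lgr5 and Dkk3 are high in basal cells, and Wnt4 is highest in urothelial-like cells.

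The study asks what loss of Chd1 does in Spop-mutant tumours, and for the 51 genes no difference between PCSp and PSp mice passed the test in any class. In the epithelium, 36 of them were tested and 0 had an adjusted p under 0.05 in edgeR, as for all 16418 genes (0% called). At an unadjusted p under 0.05 were 2 of the 36, against 7.43% of all genes. In the fibroblasts, 33 were tested and 0 passed (0% of 12106 genes called), with 3 at an unadjusted p under 0.05, against 3.78% of all genes. The median log2 difference of the members tested was 0.06 in the epithelium and -0.07 in fibroblasts, against -0.0069 and -0.0030 for all genes tested. With 2 mice per genotype, a difference that misses the threshold does not show that the genotypes are alike: the median standard error was 0.28 in the epithelium and 0.24 in fibroblasts on the log2 scale.

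Of the 5 epithelial genes with the smallest p, 4 lead in fibroblasts and lay below the estimate for released RNA in the epithelium. Wnt2 was at 0.446 and 0.666 CPM in PCSp mice and 0.220 and 0.209 CPM in PSp mice (log2 difference 1.33 ± 0.39 SE, edgeR adjusted p = 0.564). Sfrp4 was at 1.27 and 2.53 CPM in PCSp mice and 0.808 and 0.499 CPM in PSp mice (1.52 ± 0.44, adjusted p = 0.564). Rspo3 and Sfrp2 had differences of 1.30 ± 0.66 and 0.85 ± 0.46, with adjusted p of 0.709 and 0.714. Beside these, the sum of 10 fibroblast markers in the epithelium was 507 and 422 CPM in PCSp mice and 339 and 241 CPM in PSp mice. Most of that sum was Dcn, at 474 and 381 CPM in PCSp mice and 298 and 224 CPM in PSp mice. Of the 10 markers, 7 were higher in both PCSp mice than in both PSp mice and 0 were lower in both. Col1a1 was among those that overlapped between the genotypes. The part of the marker sum in these differences was not tested. Lef1 was at 0.0495 and 0.207 CPM in PCSp mice and 0.239 and 0.418 CPM in PSp mice, on 51 UMIs. Of the 26 UMIs of PSp mouse 2, 20 came from its 40 urothelial-like cells, where the other 3 mice had 0. Lef1 had a difference of -1.47 ± 0.73 and an adjusted p of 0.708. The abundant epithelial genes differed little between the genotypes: the difference was 0.05 ± 0.10 for Wnt4, -0.08 ± 0.10 for Lgr4 and -0.03 ± 0.11 for Wnt7b.

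In fibroblasts the genes with the smallest p leaned towards lower values in PCSp mice. Wnt6 was at 13.3 and 10.5 CPM in PCSp mice and 17.03 and 21.9 CPM in PSp mice, with both PCSp mice below both PSp mice (log2 difference -0.72 ± 0.22 SE, edgeR adjusted p = 0.999). Lgr5, Wif1 and Dkk2 had differences of -0.55 ± 0.23, -0.40 ± 0.17 and -0.33 ± 0.17, and Rspo1 of 0.53 ± 0.30, each with an adjusted p of 0.999. Lgr5 and Wnt6 are genes of sub-cluster 4, whose share differed among mice without separating the genotypes. Within sub-cluster 4, 24 of the genes were tested and 0 were at an unadjusted p under 0.05 (7.52% of 8082 genes) or an adjusted one (0.136% called); the differences there were -0.27 ± 0.24 for Wnt6, -0.14 ± 0.22 for Lgr5 and -0.26 ± 0.19 for Wif1.

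Sub-clusters 0 and 1 gave their smallest p for Sfrp4 and Wnt2. In sub-cluster 0 Sfrp4 was at 663 and 1248 CPM in PCSp mice and 1568 and 2119.9 CPM in PSp mice, with both PCSp mice below both PSp mice (-0.96 ± 0.24, adjusted p = 0.622; 0 of 19 genes passed, 0% of 8952 called, and 2 were at an unadjusted p under 0.05, against 5.27%). In sub-cluster 1 Wnt2 was at 54.97 and 70.01 CPM in PCSp mice and 30.8 and 11.05 CPM in PSp mice, in the other order (1.37 ± 0.32, adjusted p = 0.171; 0 of 18 passed, 0.0398% of 7529 called, and 2 were at an unadjusted p under 0.05, against 5.15%). In sub-clusters 2 and 5, 0 of 10 and 0 of 9 genes passed, against 0.026% and 0.0502% called; 1 and 2 were at an unadjusted p under 0.05, against 4.85% and 6.47%. The Sfrp4 and Wnt2 results depended on the processing. Sfrp4 in sub-cluster 0 passed without a filter on low counts (adjusted p = 3.04e-07), without PCSp mouse 2 (3.72e-06) and without PSp mouse 1 (0.0229). Wnt2 in sub-cluster 1 passed without the filter (adjusted p = 0.00472) and without PCSp mouse 1 (0.014), PCSp mouse 2 (0.0339) or PSp mouse 1 (0.000432).

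The basal cells were where most genes differed between the genotypes, with 176 of 14032 genes called (1.25%), but 0 of the 31 Wnt genes tested were among them. Fzd2 came nearest, at 13.4 and 12.9 CPM in PCSp mice and 8.81 and 8.904 CPM in PSp mice (0.56 ± 0.13 SE, edgeR adjusted p = 0.0921). Sfrp4 was at 0.896 and 4.11 CPM in PCSp mice and 0.389 and 0.257 CPM in PSp mice (2.87 ± 0.76, adjusted p = 0.124), and without a filter on low counts both passed (adjusted p = 0.022 for Fzd2 and 6.88e-10 for Sfrp4); Sfrp4 also passed without PCSp mouse 1 (0.0253). At an unadjusted p under 0.05 were 4 of the 31, against 18.3% of all genes. The sum of fibroblast markers given above was also higher in the basal cells of both PCSp mice. The basal-like cells pooled several clusters, in numbers that differed between mice. A cluster led by Ifit2 and Rsad2 held 137 of 1080 and 139 of 1224 basal cells in PCSp mice. In PSp mice it held 265 of 1031 and 231 of 788. A cluster led by Fst and Nrg1, with Dcn and Tnc among its leading genes, held 641 and 529 in PCSp mice. In PSp mice that cluster held 367 and 297. The part of this makeup in the basal differences was not tested. In luminal progenitors 0 of 24 genes passed (0.0296% called), and 1 was at an unadjusted p under 0.05, against 8.08%. Sfrp2 passed there without a filter on low counts (1.13 ± 0.28 SE, edgeR adjusted p = 0.00313).

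In the other classes, too, 0 of the genes passed: 0 of 11 in the endothelium (0% of 9096 called), 0 of 11 in macrophages and monocytes (0.0703%), 0 of 7 in neutrophils (0.0878%) and 0 of 6 in T and NK cells (0.473%). At an unadjusted p under 0.05 were 2, 1, 2 and 2 of them, against 6.52%, 6.2%, 8.75% and 8.3% of all genes in these classes. DESeq2 called 0 of the genes in each class and sub-cluster tested, but genes to which it gave no adjusted p could not be called. Such genes numbered 15338 of 17953 in neutrophils, 11264 of 16139 in T and NK cells and 8506 of 17052 in the endothelium. In basal cells they numbered 11991 of 21875, and in fibroblasts 0 of 20057. Lef1 in the endothelium was at 4.36 and 4.36 CPM in PCSp mice and 11.2 and 21.05 CPM in PSp mice (-1.89 ± 0.50 SE, edgeR adjusted p = 0.43), and passed without a filter on low counts (adjusted p = 0.0103) and without PSp mouse 1 (0.0291). Wnt11 in macrophages and monocytes was at 5.44 and 7.28 CPM in PCSp mice and 0.779 and 1.52 CPM in PSp mice (2.38 ± 0.51, adjusted p = 0.429; 0.0434 without PSp mouse 2). Sfrp1 in neutrophils was at 9.67 and 17.7 CPM in PCSp mice and 5.87 and 2.83 CPM in PSp mice (1.67 ± 0.44, adjusted p = 0.364), a mean 0.963 times what fibroblasts could leave there. It passed without a filter on low counts (adjusted p = 0.000352), without PCSp mouse 1 (0.000422) and without PSp mouse 1 (0.0212). The fibroblast marker sum in neutrophils was 212 and 227 CPM in PCSp mice and 129 and 110.5 CPM in PSp mice, and 8 of the 10 markers were higher in both PCSp mice; its part in the Sfrp1 difference was not tested. These genes outside the epithelium and the fibroblasts are named after their values were seen.

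Whether the genotype difference itself differed between the epithelium and the fibroblasts was tested with an interaction term. Of the 41 genes tested 0 passed, against 0.0181% of 16553 genes, and 5 were at an unadjusted p under 0.05, against 4.68%. Sfrp4 came nearest, with a difference of differences, epithelium minus fibroblasts, of 1.57 ± 0.26 (SE, edgeR adjusted p = 0.114; 0.00178 with DESeq2 and 4.06e-06 without a filter on low counts). It also passed without PSp mouse 1 (adjusted p = 0.000317) or PSp mouse 2 (0.0405). Its epithelial level lay below the estimate for released RNA given above.

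**Figure D5:**
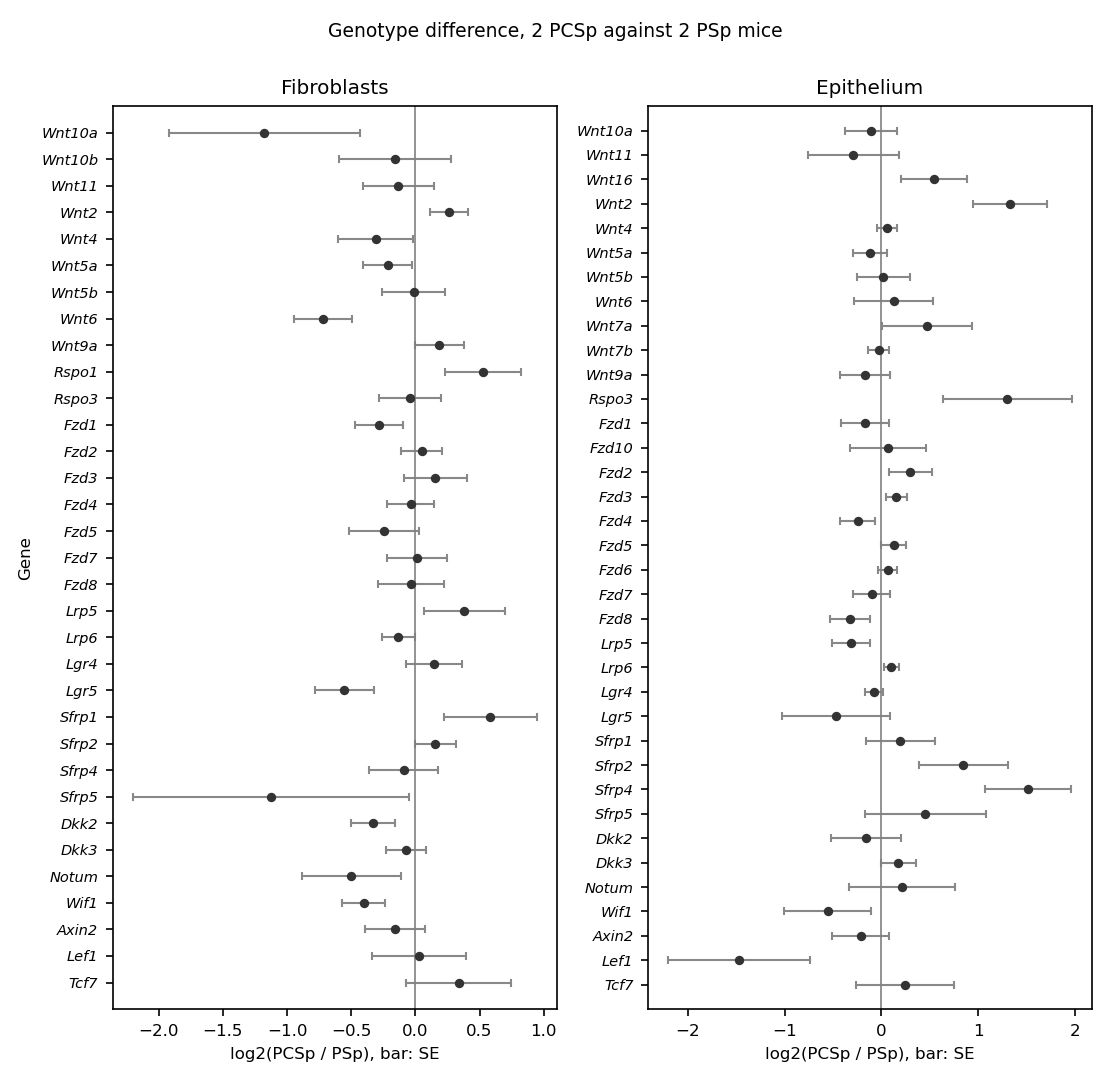
Log2 difference, PCSp minus PSp, for the 33 genes tested in fibroblasts and the 36 tested in the epithelium, with bars of 1 standard error (edgeR, 2 mice per genotype). None passed an adjusted p of 0.05, and the widest bars are those of Sfrp5 and Wnt10a in fibroblasts and of Lef1 and Rspo3 in the epithelium.

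The pathway around these genes was read from 7 lists, and 0 of their genes passed for genotype in the epithelium or in fibroblasts. Between the classes, more of the relay and nuclear genes were called lower in fibroblasts than higher, and more of the membrane partners and further antagonists higher than lower. Of all genes, 73.9% were called, 36.2% higher and 37.7% lower, and the shares of the relay, nuclear and planar polarity genes called lay below or near that. Of 17 cytoplasmic relay genes 9 differed, 2 higher in fibroblasts and 7 lower: Ctnnb1, which encodes beta-catenin, was at 438 and 416 CPM in PCSp mice and 440.4 and 494 CPM in PSp mice in the epithelium and averaged 194 CPM in fibroblasts (-1.22 ± 0.08 SE, edgeR adjusted p = 2.95e-07). Of 12 nuclear partners tested 10 differed, 3 higher and 7 lower, among them Tcf7l2, a partner of beta-catenin, with means of 79.8 CPM in fibroblasts and 101 CPM in the epithelium (-0.36 ± 0.07, adjusted p = 0.00152). Of 8 further antagonists tested 6 were higher in fibroblasts and 0 lower, led by Igfbp4, an insulin-like growth factor binding protein that can also block Wnt receptors, at 2289 ± 495 CPM in fibroblasts and 22.04 ± 7.38 CPM in the epithelium. Of 13 membrane partners tested 12 differed, 10 higher and 2 lower, among them the glypican Gpc3 (6.68 ± 0.25, adjusted p = 4.15e-09). Of 12 planar polarity genes 9 differed, 4 higher and 5 lower.

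Of the 11 feedback and target genes tested between the classes 9 differed, 5 higher in fibroblasts and 4 lower; Sox9, Cd44 and Ccnd1 were lower, with log2 differences of -3.21, -2.55 and -1.82. Wls, which carries Wnt ligands to the cell surface, was at 166 ± 21.8 CPM in fibroblasts and 182 ± 19.8 CPM in the epithelium (SD, n = 4 each) and was not called (-0.15 ± 0.08, adjusted p = 0.0955). In basal cells 2 of the 11 feedback and target genes tested and 1 of the 5 further antagonists passed for genotype, against 1.25% of all genes, and 0 of the other 5 lists; they are named for that reason. Cd44 was at 249.1 and 262 CPM in PCSp mice and 373 and 348 CPM in PSp mice (-0.51 ± 0.08 SE, edgeR adjusted p = 0.0371) and the cyclin gene Ccnd1 at 94.3 and 98.4 CPM in PCSp mice and 149 and 158 CPM in PSp mice (-0.68 ± 0.09, adjusted p = 0.0253), both lower in PCSp mice. Igfbp4 was at 58.9 and 61.7 CPM in PCSp mice and 37.03 and 32.2 CPM in PSp mice and higher in PCSp mice (0.79 ± 0.10 SE, edgeR adjusted p = 0.0253). It is an abundant fibroblast transcript, and the fibroblast marker sum of the basal cells given above moved the same way, a part that was not tested. Cd44 and Ccnd1 are genes that many signals besides Wnt control. The part of the basal makeup given above in the differences of Cd44, Ccnd1 and Igfbp4 was not tested.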

How the data were processed

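The deposited values are raw UMI counts of 10x Genomics 3' libraries, not normalized. Per the submitters' processing notes, the authors used Cell Ranger 6.1.2 with mm10. Barcodes with at least 300 genes, 500 UMIs and at most 20% mitochondrial UMIs were kept. Doublets were scored with Scrublet, whose automatic threshold marked 0 to 0.775% of barcodes, so the top scorers were left out instead (0.8% per 1000 barcodes). Cells were clustered with scanpy 1.11.5 (2000 variable genes without the 51 described here, 30 components, 15 neighbours, Leiden resolution 1, fibroblasts at 0.5) and named from marker lists. UMI counts were summed per mouse and class and tested with edgeR 4.0.16 (quasi-likelihood F-test, TMM, filterByExpr, two-sided, Benjamini-Hochberg over all genes tested, threshold 0.05) where every mouse had at least 50 cells, which left out smooth muscle and pericyte-like, B and plasma-like and glia-like cells and fibroblast sub-clusters 3, 6 and 7. Standard errors come from the F statistic. Alternatives were RLE normalization, no filter on low counts, DESeq2 1.42.0, a stricter cell filter, Leiden resolution 2, doublets kept and each mouse left out. The fits were tested on simulated data. Named are, per role, the 4 genes highest in their leading class and the 5 of smallest p in the epithelial and fibroblast fits. The genes and lists were chosen with earlier results of these data known. A further allele that both genotypes carry and 1 marker gene are not reported here. Promoter sequences come from RefSeq (GRCm38.p6). Replicate numbers follow accession order and pair no mice.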

Additional observations from a re-analysis of the deposited data

How the results depend on the processing

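PCSp and PSp mice could not be paired with each other because the replicate numbers were given in accession order and pair no mice. The fits of fibroblasts against epithelium did compare the classes within each mouse. Without a filter on low counts, the genes called for genotype numbered 130 for the interaction of class and genotype, 153 in T and NK cells, 169 in the endothelium, 10 in the epithelium, 1492 in basal cells, 493 in luminal progenitors, 154 in fibroblasts, 72, 24, 10, 45 and 12 in fibroblast sub-clusters 0, 1, 2, 4 and 5, and 194 in neutrophils. Of the 51 genes, 1 was then called in each of the interaction, the endothelium, the luminal progenitors, fibroblast sub-clusters 0 and 1 and the neutrophils, and 2 in basal cells. With DESeq2 the genes called numbered 10 for the interaction, 8 in the endothelium, 174 in the epithelium, 468 in basal cells, 84 in luminal progenitors, 4 in fibroblasts, 3, 0, 0 and 0 in sub-clusters 0, 1, 2 and 5, 20 in macrophages and monocytes and 17 in neutrophils, and 1 of the 51 genes was called, Sfrp4 in the interaction. Genes to which DESeq2 gave no adjusted p could not be called. With RLE normalization 0 genes were called in sub-cluster 2. With doublets kept, 21 genes were called in T and NK cells, 4 in macrophages and monocytes and 22 in neutrophils, and smooth muscle and pericyte-like cells led 0 of the 51 genes. The cause of these changes was not tested.

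When each mouse was left out in turn, the genes called ranged from 0 to 212 for the interaction, 90 to 133 in T and NK cells, 1 to 116 in the endothelium, 0 to 1 in the epithelium, 23 to 273 in basal cells, 5 to 19 in luminal progenitors, 2 to 63 in fibroblasts, 22 to 60, 17 to 32, 5 to 10, 13 to 99 and 0 to 10 in sub-clusters 0, 1, 2, 4 and 5, 1 to 314 in macrophages and monocytes, 40 to 335 in neutrophils and 10348 to 11215 between fibroblasts and epithelium. Here the lone mouse of a genotype is assumed to vary like the others. Of the 51 genes, 0 to 3 were called for the interaction, 0 to 2 in neutrophils, 0 to 1 in T and NK cells, the endothelium, basal cells, sub-clusters 0 and 1 and macrophages, and 36 to 37 between fibroblasts and epithelium. Without 1 PSp mouse, Sfrp4, Wnt6 and Lgr5 passed for the interaction (adjusted p = 0.000317, 0.0147 and 0.00121 in edgeR). The endothelium then led 3 to 4 genes, fibroblasts 20 to 22, glia-like cells 2 to 3, and smooth muscle and pericyte-like cells 1 to 2. The PCSp minus PSp share of sub-cluster 4 ranged from -9.96 to 1.44 percentage points and that of sub-cluster 6 from 3.37 to 11.0. The sign changed for Fzd3 between fibroblasts and epithelium (from -0.149 to 0.0437 on the log2 scale), and in the interaction for Dkk2 (-0.029 to 0.434), Lgr5 (-0.839 to 1.42) and Wif1 (-0.368 to 0.0308, with 0.00438 between), none of which was called there with all mice. Sfrp5 lost its call between fibroblasts and epithelium without 1 mouse (1.92 and 1.98).

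With 2 mice per genotype, counts of calls moved with every mouse, and rare classes had few UMIs, so small differences were not detectable at this depth. Low levels of fibroblast genes in other classes were not told apart from released RNA. Class names rest on marker lists, and cells without a name were left out of subclass levels.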

Other observations

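The 52 neuroendocrine-like cells and the 80 glia-like cells, too few to test, are described here for a few of the genes. Of the 9 UMIs of Rspo2, 8 fell in the neuroendocrine-like cells, as did 5 of the 8 UMIs of Dkk1, and both genes were at or near the detection limit. Sfrp5 was at 37.2 and 24.2 CPM in PCSp mice and 91.8 and 15.4 CPM in PSp mice in them, and Fzd3 at 38.7 and 64.6 CPM in PCSp mice and 36.7 and 43.2 CPM in PSp mice. Both genes had their highest class level in the glia-like cells, where Fzd3 was at 204 and 311 CPM in PCSp mice and 69.7 and 158 CPM in PSp mice. Sfrp1, a gene led by fibroblasts, was at 687 and 178 CPM in PCSp mice and 609.5 and 270.5 CPM in PSp mice in the glia-like cells, on 178165 UMIs in all. The sum of 10 fibroblast markers there was 761 and 977 CPM in PCSp mice and 1254 and 1104 CPM in PSp mice. Its part in the Sfrp1 level was not tested. Counting error at these depths is large, and values of single mice differ several-fold.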
